A study of Danio rerio with 13 samples.

Results

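The genes described here encode the ligands, receptors, extracellular antagonists and SMAD proteins of bone morphogenetic protein (BMP) and transforming growth factor beta (TGF-beta) signalling in zebrafish. They were chosen by symbol, through the name stems of these families (bmp, gdf, tgfb, inhb, acvr, bmpr, smad, nog, grem, fst, ltbp and their relatives). The stems matched 133 promoter windows of 85 gene IDs, out of 42037 windows and 24416 genes. By role they comprised 29 ligand genes, 21 receptor genes, 11 antagonist genes, 4 genes of latent TGF-beta binding proteins, 11 smad genes and 9 other genes that the stems matched. These were bmp1a and bmp1b, whose products are proteases of the tolloid family, bmp2k, which encodes a kinase induced by BMP, the follistatin-like genes fstl1a, fstl1b, fstl3 and fstl4, tgfbi and tgfbrap1. The symbols bmpr1bb and ltbp1 each belong to a pair of gene IDs.

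The study profiled a pair of histone marks by chromatin immunoprecipitation and sequencing in TuAB zebrafish aged 1 to 1.5 years. Hearts taken 5 days after the ventricular apex was resected were set against uninjured hearts, with 3 libraries per condition and mark. Cells of the ventricle's apical part were held back on a 10 micrometre mesh, which enriches cardiomyocytes, so other heart cells may remain. The labels' batch field names the condition, so batch and resection cannot be told apart. H3K4me3 marks promoters in use, H3K27me3 is laid down by the Polycomb complex PRC2 at silenced promoters, and the tables used here hold the authors' comparison for each mark but no value per library.

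In this pathway a secreted dimer, such as a BMP, a growth and differentiation factor, an activin or TGF-beta itself, brings type I and type II receptor kinases together. The type I receptor phosphorylates a receptor SMAD, which enters the nucleus with SMAD4, while the inhibitory SMADs encoded by smad6 and smad7 genes restrain the signal. Antagonists such as noggin, gremlin and follistatin bind ligands outside the cell, and latent TGF-beta binding proteins hold TGF-beta in the matrix. In the zebrafish heart, BMP signalling and TGF-beta and activin signalling are both known for roles in regeneration.

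The signalling machinery and its extracellular regulators differed in their median counts of both marks. Of the windows of a gene, the one with most H3K27me3 stood for it, and each of these was 4 kb wide, so that levels per window are levels per length. A level is the authors' mean count for the window, normalised and taken over resected and uninjured libraries together. The mixed input was not used, so how far a count exceeds background was not tested. The median H3K4me3 mean count was 54.0 over the 29 ligand genes, 218 over the 21 receptor genes, 41.7 over the 11 antagonist genes and 341 over the 11 smad genes, beside 56.4 over all genes. The receptor and smad medians thus stood above the all-gene median and the antagonist median below it. Single genes were spread more widely. Below the all-gene lower quartile of 38.6 lay 4 of 21 receptor, 4 of 11 smad, 4 of 11 antagonist and 4 of 29 ligand genes. The low smad genes smad2, smad7, smad9 and SMAD4 (1 of many) had other windows with mean counts of 400, 907, 195 and 166. The low receptor genes tgfbr2b and tgfbr3 had other windows with 324 and 311. These low values therefore depend on the choice of window. For H3K27me3 the order of the medians was the reverse, with mean counts of 68.3 for ligand genes, 56.2 for receptor genes, 71.1 for antagonist genes and 48.7 for smad genes, beside 60.5 over all genes. The 4 latent TGF-beta binding protein genes had medians of 101 for H3K4me3 and 63.3 for H3K27me3. With the 9 other genes spread over the nearest roles by name, the receptor genes numbered 22 in place of 21 and their H3K4me3 median was 137. Members share their libraries and are not replicates, so these differences between roles are a description.

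**Figure D1:**
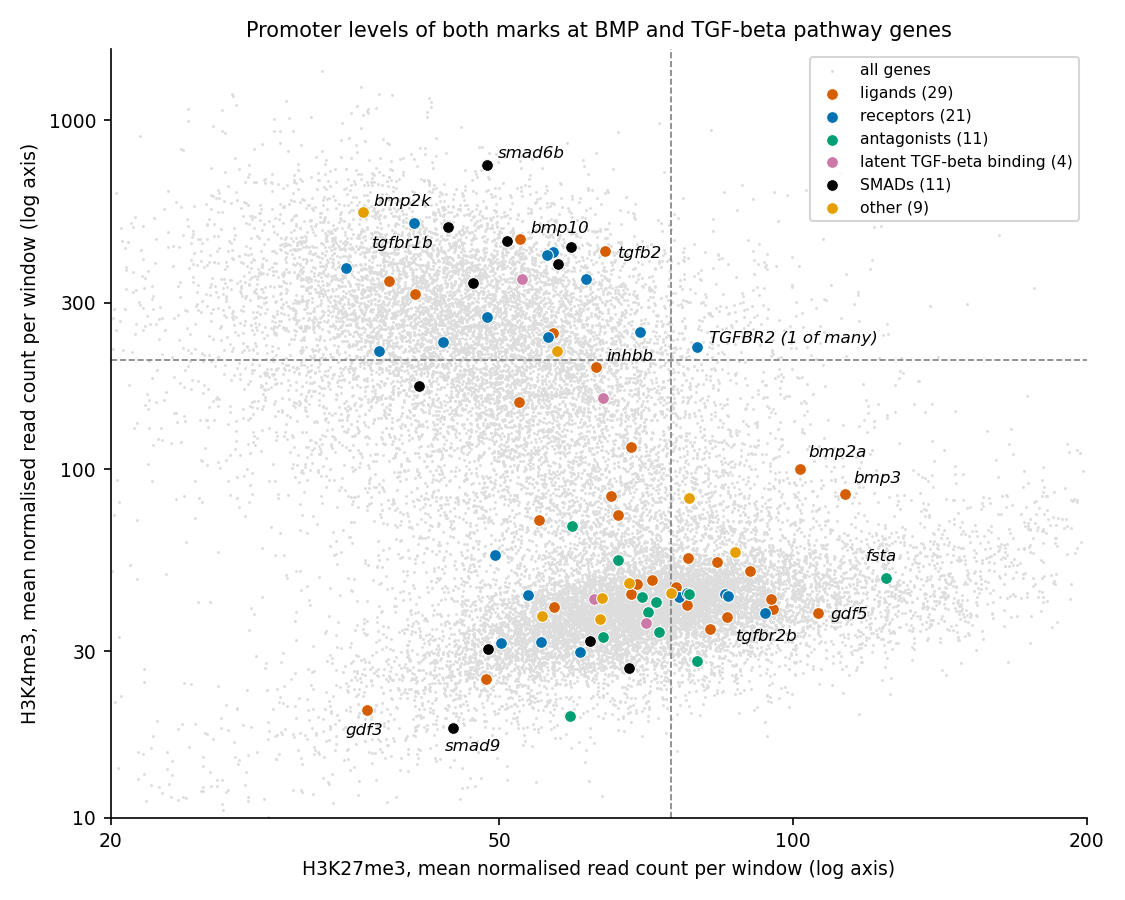
Mean normalised read count of H3K27me3 (x) and H3K4me3 (y) at the window that represents each gene, both on log axes. Coloured points are the 85 members by role, grey points are all genes within the axis limits, and dashed lines are the all-gene 75th percentiles of 75.1 for H3K27me3 and 206 for H3K4me3; 1 member lies above both lines.

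Set against the upper quartile of all genes, 11 of 21 receptor genes, 6 of 11 smad genes, 5 of 29 ligand genes and none of the 11 antagonist genes lay at or above 206 for H3K4me3. For H3K27me3, 12 of 29 ligand genes, 6 of 21 receptor genes, 3 of 11 antagonist genes and none of the 11 smad genes lay at or above 75.1. A single member, the receptor gene TGFBR2 (1 of many), stood in the upper quartile of both marks (mean counts 224 for H3K4me3 and 79.7 for H3K27me3), and 38 of 85 stood in neither. The same combination of both marks was seen at 1.09% of all genes. Over the 85 members the levels of the marks had a Spearman correlation of -0.34, and over all genes of -0.36, from the same libraries.

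Among ligand genes, H3K27me3 was highest at bmp3 (mean count 113), gdf5 (106) and bmp2a (102), followed by bmp7a (95.4), gdf6a and mstnb (90.3). The mstnb window overlaps that of C2orf88, so the signal there cannot be assigned to either gene. bmp2a and bmp7a encode canonical BMPs, gdf5 and gdf6a encode growth factors of joint and skeletal patterning, and mstnb encodes myostatin, a restraint on muscle growth. Of these, bmp2a and bmp3 also held intermediate H3K4me3, with mean counts of 99.8 and 85.1, whereas gdf5, bmp7a and gdf6a had 38.6, 39.7 and 42.5. bmp4 had a mean count of 78.0 for H3K27me3 and 55.7 for H3K4me3, and bmp2b had 66.2 and 73.9.

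The ligand genes with most H3K4me3 were bmp10 (mean count 456), which encodes a BMP made by heart muscle, tgfb2 (421) and tgfb1b (347), both of which encode TGF-beta ligands. bmp15, an oocyte growth factor gene, came next with 317, but its window overlaps that of got2b and the signal there cannot be assigned to either gene. bmp16, with 245, completed the ligand genes above the upper quartile. At the other end, gdf3 had 20.3 for H3K4me3 and 36.6 for H3K27me3, the lowest H3K27me3 among ligand genes.

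The highest H3K4me3 of any member was at smad6b, an inhibitory SMAD gene, with a mean count of 747, at percentile 99.6 of all genes. smad3a (496), smad4a (451), smad6a (434), smad3b (388) and smad5 (341) lay in the upper quartile too, and smad1 (174) lay below it. Their H3K27me3 mean counts ranged from 41.4 at smad1 to 59.3 at smad6a, and the highest of all smad genes was 67.9 at SMAD4 (1 of many). Among receptor genes the highest H3K4me3 was at tgfbr1b (508), a type I TGF-beta receptor gene, then acvr1l (421) and bmpr2b (411), a type II BMP receptor gene. acvr1ba, an activin receptor gene, had the lowest H3K27me3 of any member, with a mean count of 34.8, beside an H3K4me3 mean count of 377.

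All 11 antagonist genes lay below the upper quartile of H3K4me3. Their mean counts ran from 19.6 at grem1a, whose window overlaps that of scg5, to 68.9 at bmper, which was above the all-gene median. The highest H3K27me3 of any member, 125 at percentile 96.9 of all genes, was at fsta, which encodes the activin antagonist follistatin. lft1, a Lefty gene whose product blocks Nodal, had 79.7, and fstb, another follistatin gene, had 78.3. grem1a also had the lowest H3K27me3 among antagonist genes, at 59.2. The noggin genes nog1, nog2 and nog3 had H3K27me3 mean counts of 66.3, 71.1 and 70.0, and their H3K4me3 mean counts lay below the all-gene median of 56.4. The nog1 window overlaps that of BX539325.2. Among the latent TGF-beta binding protein genes LTBP4 had the highest H3K27me3 (70.8) and LTBP3 the lowest (52.8), and LTBP3 had an H3K4me3 mean count of 351. Of the 9 other genes, bmp2k had the second highest H3K4me3 of all members (545) and low H3K27me3 (36.2), and fstl3 had the highest H3K27me3 among them (87.3).

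After resection, H3K4me3 fell at 2 ligand promoters and rose at no member promoter. The ligand genes were inhbb, which encodes the beta B subunit shared by activin B and inhibin B, and bmp10. At inhbb the authors' deposited table gives a log2 fold change of resected over uninjured of -1.02 (SE 0.25, adjusted p = 0.00389), which is 50.5% lower. For bmp10 the authors' deposited table gives -0.72 (SE 0.21, adjusted p = 0.026), or 39.2% lower. Each adjusted p is from the authors' Wald test over windows, and a change was called at an adjusted p under 0.05. The 95% intervals from these standard errors ended short of 0, at -0.53 for inhbb and at -0.31 for bmp10. Among all genes with an adjusted p, 2.88% were called in either direction and 1.3% were called lower. Of the 85 members, 42 had an adjusted p, because the authors gave none to windows with a mean count under 51.8. The 2 members among 42 are too few to set apart from that background.

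In the coordinates of the deposited tables, whose genome build is not stated, inhbb was measured on chromosome 9 from 37155500 to 37159499. The bmp10 window spans 20705336 to 20709335 of chromosome 5. Neither overlaps a window of another gene. When the p-values were instead adjusted over 1 window per gene, with no filter on low counts, the bmp10 call was lost (adjusted p = 0.0504) and the inhbb call held (adjusted p = 0.0082). The H3K4me3 fold changes bear the signs of shrinkage towards 0. Undoing a normal prior with the SD of 0.603 that the ceiling of the standard errors gives would turn them into -1.29 for inhbb and -0.83 for bmp10.

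Just outside the threshold stood smad6b, with a log2 fold change of -0.64 in the authors' deposited table (SE 0.20, adjusted p = 0.0534, 95% interval -1.04 to -0.24). Its paralogue smad6a had -0.19 (SE 0.23) in the same deposited table, and whether the paralogues differ was not tested. By p there followed the ligand genes tgfb2, BMP10 (1 of many) and bmp16. At tgfb2 the authors' deposited table has -0.60 (SE 0.25, adjusted p = 0.22). BMP10 (1 of many), another bmp10 gene, had -0.71 in the authors' deposited table (SE 0.29, adjusted p = 0.221), at an H3K4me3 mean count of 71.2 beside 456 for bmp10. For bmp16 the authors' deposited table gives -0.54 (SE 0.24, adjusted p = 0.317). Of the receptor genes, bmpr1ab, which encodes a type I BMP receptor, had -0.51 in the authors' deposited table (SE 0.25, adjusted p = 0.382).

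These genes make up the 7 of 85 members with an unadjusted p under 0.05, all of them lower in resected hearts. The share was 4.28% lower and 3.76% higher over all genes. No member lay higher at that level. The member nearest to it was acvrl1, which encodes a type I receptor of endothelial cells for bmp10 and gdf2 ligands. Its log2 fold change in the authors' deposited table was 0.47 (SE 0.24, unadjusted p = 0.0531, adjusted p = 0.451). The next were ltbp1 with 0.42 (SE 0.25, unadjusted p = 0.101) at the first of its gene IDs, ENSDARG00000056922, and grem2a, a gremlin gene, with 0.44 (SE 0.30, unadjusted p = 0.146) in the authors' deposited table. The other ltbp1 gene ID went the opposite way, with -0.48 (SE 0.30, unadjusted p = 0.102, no adjusted p) in the authors' deposited table.

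**Figure D2:**
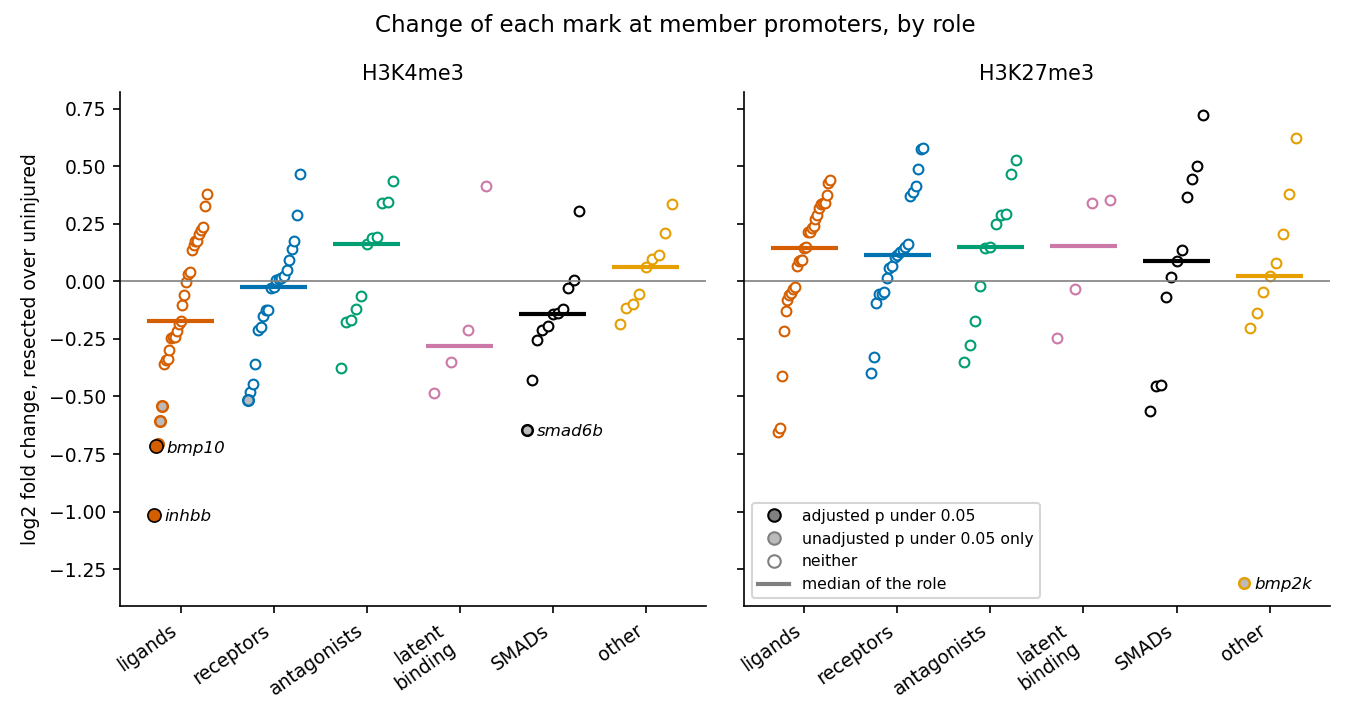
Log2 fold change of resected over uninjured hearts (y) for H3K4me3 (left) and H3K27me3 (right), with 1 point per member in each role, sorted within the role, and a bar at the median of the role. Filled points passed the adjusted p of 0.05 (inhbb and bmp10 for H3K4me3), grey points passed only without adjustment.

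By role, the median log2 fold change of H3K4me3 was -0.17 for ligand genes, -0.02 for receptor genes, 0.16 for antagonist genes and -0.14 for smad genes, computed from the authors' deposited table. At the windows of highest H3K4me3 the medians were -0.10 for ligand genes and -0.12 for receptor genes, so their order depends on the choice of window. Over all 85 members it was -0.10 (-0.06 at the windows of highest H3K4me3), with 50 below 0 and 35 above, and over all genes it was 0.00, with 49.4% below 0 and 50.6% above. Of the smad genes 9 of 11 lay below 0, and of the antagonist genes 5 of 11. For a member of median standard error the 95% interval extends 0.57 log2 units either way. That is the interval of a single member, not of a median over members, and the medians were not tested. Among the other canonical BMP and TGF-beta ligand genes no value passed. In the authors' deposited table bmp2a had -0.34 (SE 0.27), bmp2b 0.16 (SE 0.28), bmp4 -0.24 (SE 0.29), bmp7a -0.06 (SE 0.30), tgfb1a 0.33 (SE 0.25), tgfb1b 0.18 (SE 0.22) and tgfb3 -0.25 (SE 0.29). inhbaa, the activin beta A subunit gene, had 0.38 (SE 0.27) in the authors' deposited table and did not pass either.

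Markers of cell types moved in the same comparison. At each gene's window of highest H3K4me3, 10 of 14 cardiomyocyte markers and 2 of 9 endocardial markers fell, while 7 of 12 leukocyte markers, 4 of 6 epicardial markers and 2 of 6 erythroid markers rose. At the windows of highest H3K27me3, which stand for the members, 7 of 14 cardiomyocyte markers fell, and the other counts were the same. Over all 24416 genes at their windows of highest H3K4me3, 215 were called lower and 234 higher. The median H3K4me3 mean count there was 168 over the cardiomyocyte markers, 104 over the leukocyte markers, 132 over the epicardial markers and 244 over the endocardial markers, beside 94.0 over all genes. None of the 6 fibroblast and smooth muscle markers passed, and their median was 53.8. At the windows of highest H3K27me3 only 3 of these 6 had an adjusted p, so the rest could not pass. PDGFRB, which had none, had a log2 fold change of -0.58 (SE 0.29, unadjusted p = 0.0495) in the authors' deposited table. The lowest H3K4me3 mean counts, at the windows of highest H3K27me3, were 33.3 among cardiomyocyte, 40.6 among leukocyte and 66.4 among epicardial markers. They were 28.3 among endocardial, 45.4 among erythroid and 20.7 among fibroblast and smooth muscle markers. The lower quartile over all genes was 38.6, and each count pools both conditions. A count above 0 therefore does not show that a cell type was present. At those windows the called erythroid genes, hbaa1 and an hbba1 gene, overlap each other, so they are not separate markers. The windows of nppa, myh7ba, cebpa and wt1a overlap those of further genes. Levels in each condition are not given in the tables. The part of these shifts in the inhbb and bmp10 values was not tested, and in bulk libraries fewer cells of a type and less of a mark per cell cannot be told apart.

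H3K27me3 did not pass the test at any member promoter. Of 85 members 0 were called, beside 0.0% of 24075 genes in the authors' deposited table. At an unadjusted p under 0.05 the members gave 1 lower value and 0 higher ones, beside 1.74% lower and 1.15% higher over all genes. The 1 was bmp2k, with a log2 fold change of -1.31 (SE 0.55, unadjusted p = 0.0179) in the authors' deposited table, at a mean count of only 36.2. At the genes whose H3K4me3 fell, H3K27me3 had log2 fold changes of -0.03 (95% interval -0.81 to 0.76) for inhbb and 0.21 (95% interval -0.65 to 1.08) for bmp10 in the authors' deposited table. The interval of bmp10 includes a gain of H3K27me3 as large as the loss of H3K4me3, and that of inhbb does not. The scales may differ, because the H3K4me3 values bear the signs of shrinkage. Over all genes the standard errors reach 0.30 for H3K4me3 and 3.05 for H3K27me3. With the H3K4me3 shrinkage undone (-0.83 for bmp10 and -1.29 for inhbb) the reading is the same.

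The smallest p upwards was that of smad3b, a receptor SMAD gene of the TGF-beta and activin branch (log2 fold change 0.72, SE 0.43, unadjusted p = 0.0918 in the authors' deposited table). Then followed tgfbrap1 (0.62, unadjusted p = 0.115) and bmpr1bb (0.57, unadjusted p = 0.162) at its gene ID ENSDARG00000102742 in the authors' deposited table. Downwards they were bmp8a (-0.65, unadjusted p = 0.129) and bmp15 (-0.64, unadjusted p = 0.186) in the authors' deposited table. The direction at tgfbrap1 depended on the window. At its other window, 15.7 kb away, the authors' deposited table gives -0.90 (SE 0.46, unadjusted p = 0.054). Over the members, 55 of 85 log2 fold changes were above 0, with a median of 0.11, beside 52.3% above and 47.7% below 0 and a median of 0.02 over all genes. By role 19 of 29 ligand genes, 15 of 21 receptor genes, 7 of 11 antagonist genes and 7 of 11 smad genes lay above 0. Signs at cell type markers were uneven too, at the windows of highest H3K27me3. Log2 fold changes of H3K27me3 lay above 0 at 14 of 14 cardiomyocyte markers (median 0.48). They lay below 0 at 10 of 12 leukocyte markers (median -0.47) and at 5 of 5 epicardial markers (median -0.23). The remaining epicardial marker, BNC1, had a mean count of 0 and no fold change. At an unadjusted p under 0.05, 2 cardiomyocyte markers were higher and 3 leukocyte markers lower. Markers share their libraries and are not replicates. None of these markers passed the test, and their part in the members' values was not tested. The 95% interval of a member with the median standard error spans 0.80 log2 units either way, before any adjustment. A smaller estimate would not pass at such a promoter. With adjustment a larger one could also go uncalled, as -1.31 (SE 0.55) did at bmp2k.

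**Figure D3:**
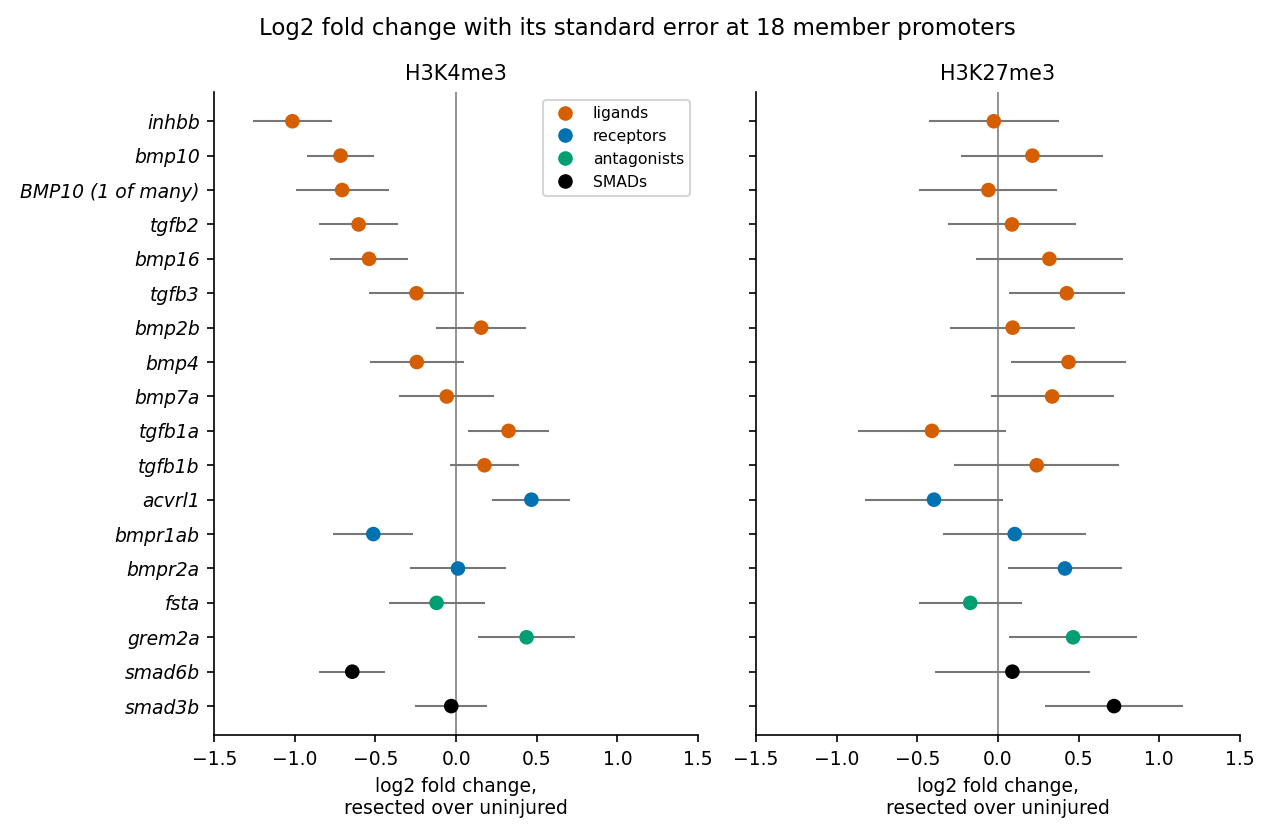
Log2 fold change of resected over uninjured hearts (x) for H3K4me3 (left) and H3K27me3 (right) at 18 members, coloured by role. Bars are 1 standard error from the authors' deposited table, and inhbb, at -1.02, and bmp10, at -0.72, are the members called for H3K4me3.

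Several members have more than one promoter window, and their windows could carry different marks. Of 85 members 32 had several windows, and 19 had windows that share no base, at least 4 kb apart. In 10 of the 19, the representing window had H3K4me3 under the all-gene upper quartile of 206 while another window of the same gene lay above it. The widest contrast was at smad7, an inhibitory SMAD gene. Its representing window had mean counts of 30.5 for H3K4me3 and 48.7 for H3K27me3, and a window 30.7 kb away had 907 and 35.1. That second window exceeds the H3K4me3 of smad6b, so the low value of smad7 in the comparison of roles rests on the choice of window.

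The other smad and receptor genes in this class were acvr2aa, with 43.6 against 611 for H3K4me3 at windows 18.7 kb apart, smad2 (32.2 against 400), bmpr2a (43.2 against 338, at a window that overlaps one of fam117ba), tgfbr2b (38.5 against 324), tgfbr3 (31.7 against 311) and bmpr1aa (42.9 against 256). They encode type II receptors for activins, BMPs and TGF-beta, a receptor SMAD, the co-receptor betaglycan and a type I BMP receptor. Among ligand genes tgfb3 alone belonged to it, with 45.8 against 368. The remaining ones were fstl1b and tgfbrap1. smad9 (18.1 against 195) and SMAD4 (1 of many) (26.8 against 166) showed the same kind of contrast without reaching the quartile.

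H3K27me3 was higher at the representing window of each of these genes because the window was chosen for it, and the size of that gap differed. It was 93.6 against 31.5 at tgfbr2b, 75.9 against 30.3 at tgfb3 and 85.7 against 51.6 at bmpr2a, but 63.4 against 63.3 at tgfbrap1. At the windows with high H3K4me3 the log2 fold changes of resected over uninjured in the authors' deposited table included -0.54 (SE 0.24, adjusted p = 0.272) for bmpr2a, whose signal there cannot be assigned to it or to fam117ba, -0.49 (SE 0.24, adjusted p = 0.407) for tgfb3 and -0.42 (SE 0.23, adjusted p = 0.489) for smad7. None of the 10 passed. gdf5 was the reverse case: its windows had 38.6 and 32.1 for H3K4me3, both low, and 106 and 46.9 for H3K27me3, so that 1 of them had the higher H3K27me3. The window with less of both had a log2 fold change for H3K4me3 of -0.66 in the authors' deposited table (SE 0.30, unadjusted p = 0.0266, no adjusted p). bmpr2b (411 and 34.1) and acvr1bb (248 and 34.2) were represented by their window of high H3K4me3, though the acvr1bb window overlaps that of PXMP4.

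**Figure D4:**
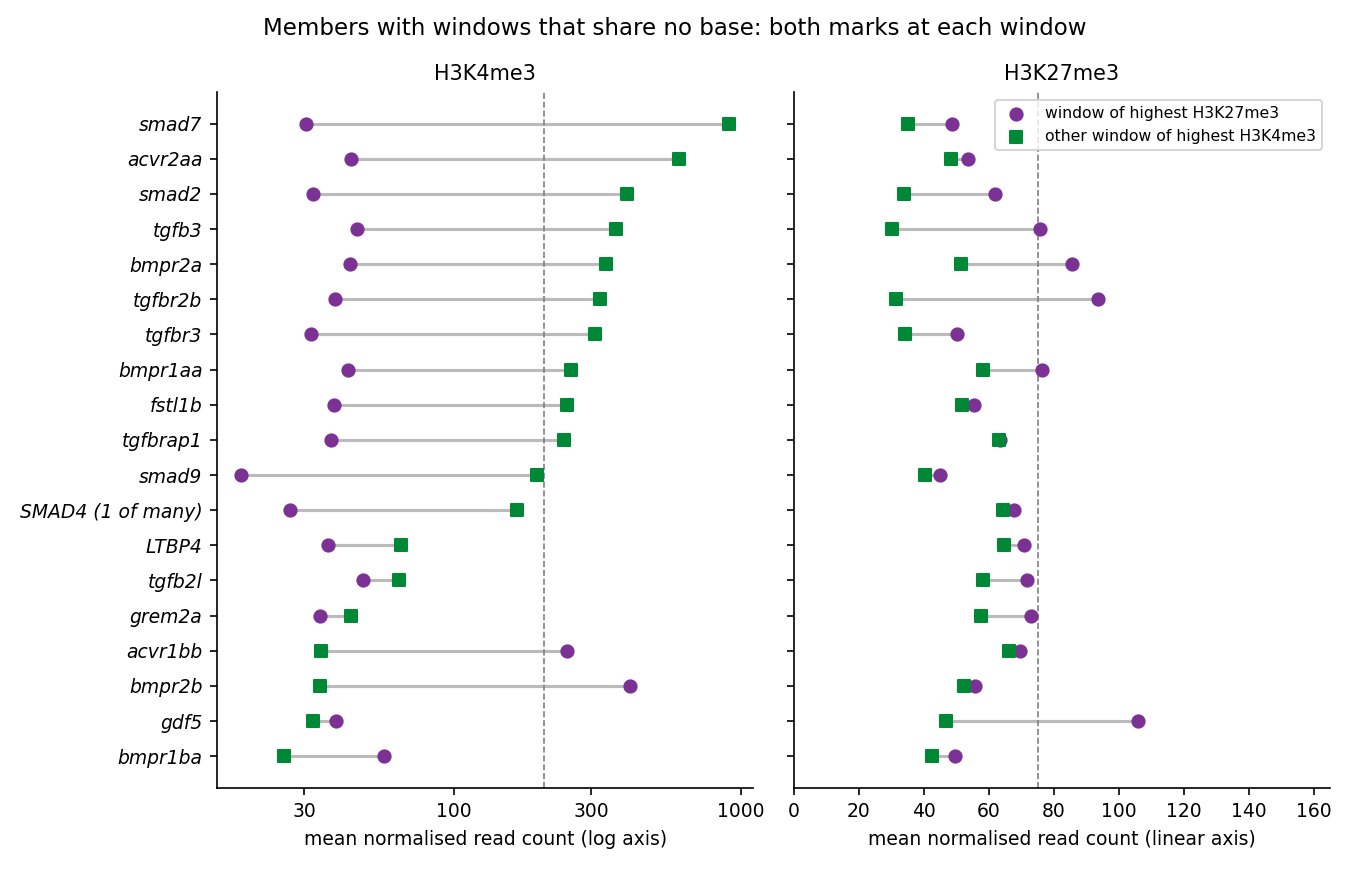
Mean normalised read count of H3K4me3 (left, log axis) and H3K27me3 (right, linear axis) at the window of highest H3K27me3 (purple circles) and, among the windows that share no base with it, the one of highest H3K4me3 (green squares), for 19 members. Dashed lines are the all-gene 75th percentiles, and the green squares of the upper 10 genes lie to the right of the line for H3K4me3.

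With each gene at its window of highest H3K4me3, the same 2 members were called, and the upper quartile of H3K4me3 (252 over all genes) held 8 of 11 smad genes, 11 of 21 receptor genes, 5 of 29 ligand genes and 0 of 11 antagonist genes. At an unadjusted p under 0.05, 9 members lay lower and 0 higher, with bmpr2a, at the window shared with fam117ba, and tgfb3 joining the earlier 7. The share over all genes at those windows was 4.61% lower and 4.26% higher.

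Some members are neighbours in the genome, and the marks could differ between them. The bmp2a and gdf3 windows lie 13.8 kb apart on chromosome 17 and had H3K27me3 mean counts of 102 and 36.6. gdf10b and gdf2, 16.3 kb apart on chromosome 12, were alike, with 82.2 and 77.8 for H3K27me3 and 34.8 and 40.7 for H3K4me3. smad3a and smad6a, 43.6 kb apart on chromosome 7, both had high H3K4me3, at 496 and 434. BMP10 (1 of many) and smad4a lie 11.1 kb apart on chromosome 10, with H3K4me3 mean counts of 71.2 and 451 and log2 fold changes in the authors' deposited table of -0.71 and -0.14, neither past the test. The receptor genes acvr1ba and acvrl1, 34.1 kb apart on chromosome 23, had log2 fold changes for H3K4me3 of -0.20 (SE 0.23) and 0.47 (SE 0.24) in the authors' deposited table.

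The rest of the pathway, listed apart from these families, held no called gene. The list names further ligands, co-receptors, extracellular regulators, intracellular regulators and target genes, and 81 gene IDs were found for its 107 entries. Of 5 ligand entries 1 was found, amh. The symbol neo1b belongs to a pair of these gene IDs, whose windows overlap. For H3K4me3 0 of 81 passed the adjusted p of 0.05 in the authors' deposited table and 52 had one, beside 2.88% called over all genes. At an unadjusted p under 0.05, 2 were lower and 2 higher, beside 4.28% lower and 3.76% higher over all genes, so these counts are near the background. The lower ones were id2b, a BMP target that encodes an inhibitor of helix-loop-helix factors (log2 fold change -0.49 in the authors' deposited table, SE 0.21, adjusted p = 0.249), and tll1, a protease gene of the tolloid family (-0.54, SE 0.25, adjusted p = 0.321). The higher ones were ctgfa, a TGF-beta target that encodes a matrix growth factor (0.55 in the authors' deposited table, SE 0.26, adjusted p = 0.35), and pcsk6, a proprotein convertase gene (0.62, SE 0.30, with no adjusted p).

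Of other targets, the authors' deposited table gives H3K4me3 log2 fold changes of 0.51 for snai1b (SE 0.29), 0.43 for snai2 (SE 0.27), 0.31 for id2a (SE 0.23), 0.07 for id1 (SE 0.21), -0.07 for id3 (SE 0.22) and -0.36 for cdkn1a (SE 0.23), none past the test. snai1a, the paralogue of snai1b, had -0.24 (SE 0.24) in the authors' deposited table and did not pass, at a window that overlaps that of tp53inp2. The id1 and id2a windows each overlap that of another gene. The target genes id3 and id2b differed in H3K27me3, with mean counts of 94.1 and 49.8, while both had high H3K4me3 (413 and 496). For H3K27me3 0 of 81 passed and 1 had an unadjusted p under 0.05, hspg2, the gene of the matrix proteoglycan perlecan (-0.99, SE 0.45, unadjusted p = 0.0271 in the authors' deposited table). The next was ep300a, a histone acetyltransferase gene (-0.84, unadjusted p = 0.071), and upwards pcsk5b (0.63, unadjusted p = 0.0675) and hfe2 (0.63, unadjusted p = 0.12), a BMP co-receptor gene, led in the authors' deposited table. The hfe2 window also overlaps that of another gene.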

How the data were processed

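Per the labels' protocols, ventricular cells from resected and uninjured zebrafish hearts were fixed, sonicated and immunoprecipitated. Without giving any of them a role, the submitters' processing notes list DESeq2, MACS2, bedtools 2.26.0, SAMtools, Picard 2.8.1, Bowtie2 2.3.2 and BWA, and danRer10, danRer7 and GRCz10 as builds. Per the file headers, the authors deposited for each window the signal (mean normalised count), the log2 fold change and its standard error, the Wald score, and the p-value and adjusted p-value, in columns named as in DESeq2. The sources used here give no depth per library. The mixed input was not used.

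From these, 1 window per gene ID was taken by highest H3K27me3, mitochondrial windows left out. Members and lists were chosen with earlier results of these data known. Named members are those called, the 3 smallest p per direction and mark, the 8 highest levels per mark, the extremes of H3K27me3 per role, and those whose windows differ in their upper-quartile marks. Others named were chosen after their values were seen. Among ligand and receptor genes they were bmp4, bmp2b, bmp16, BMP10 (1 of many), inhbaa, the tgfb1 genes, bmpr1ab and TGFBR2 (1 of many). They also included lft1, fstb, bmper, the noggin genes, further smad genes and neighbours. Of the rest of the pathway they were id1, id3, id2a, snai1a, snai1b, snai2 and cdkn1a. The design text calls the libraries biological replicates; p-values rest on 3 per group. Of the 85 gene IDs, 81 were found in the gene name table. Alternatives varied the window, the adjustment, the filter and the threshold, using pandas 2.3.3 and numpy 2.4.6. The adjustment and the undoing of shrinkage were run on simulated data. For the shrinkage the simulation used the same formula and a known prior. It checks the arithmetic, not whether the authors' values carry that prior.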

Additional observations from a re-analysis of the deposited data

How the results depend on the processing

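The number of members called for H3K4me3 (inhbb and bmp10, both lower) was 2 with the window of highest H3K4me3, with any window, with adjustment over every window and with adjustment over windows with a mean count of at least 20. It was 1 (inhbb) with adjustment over 1 window per gene, where bmp10 had an adjusted p of 0.0504, and 3 (with smad6b) at an adjusted p under 0.1. For H3K27me3 it was 0 under each of these. The adjusted p of bmp10 ranged from 0.026 to 0.0504 and that of inhbb from 0.00389 to 0.0082. The median H3K4me3 of receptor genes was 137 in place of 218 with the 9 other genes spread over the roles by name, which made 22 receptor genes in place of 21. With the window of highest H3K4me3, that of the 9 other genes was 82.7 in place of 47.0, and the median log2 fold change of H3K4me3 was -0.12 in place of -0.02 for receptor genes, -0.10 in place of -0.17 for ligand genes and -0.06 in place of -0.10 over all members. No replicate could be left out and no fit with another count model made, because the tables hold no value per library. No paired analysis was possible because the columns carry no replicate numbers. Members without an adjusted p for H3K4me3, 43 of 85 at the windows used, lie under the authors' count filter.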
